A study of Mus musculus with 30 samples.

Results

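Skeletal muscle of untreated HSA-LR mice (NT) was compared with that of wild-type mice (WT) by RNA sequencing of the quadriceps. The 13 libraries compared, 8 NT and 5 WT, were chosen by their labels out of the 30 in the series. NT mice were homozygous HSA-LR mice of line 20b, which carry a human skeletal actin transgene with an expanded CTG repeat, expressed in skeletal muscle, and WT mice were FVB/N, the strain on which the line is kept. Neither group was given an agent. The labels give both genotypes an age of 8 weeks at the time when the study's other mice were injected. NT1 to NT6 and all WT libraries belong to the first deposited set, whereas NT7 and NT8 belong to a second set with no WT library, so each comparison was made with NT1 to NT8 and again with NT1 to NT6. All NT mice represent 1 transgenic line, so the repeat RNA, the transgene insertion and differences between separately bred lines cannot be told apart. The human transgene was not analysed here.

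In myotonic dystrophy type 1 (DM1), transcripts with an expanded CUG repeat accumulate in nuclear foci and bind muscleblind-like (MBNL) proteins, which regulate pre-mRNA splicing in muscle. Loss of free MBNL returns many muscle transcripts to fetal splice forms. Mis-splicing of the muscle chloride channel ClC-1 causes the delayed relaxation known as myotonia. HSA-LR mice express the repeat in muscle fibres, without an expansion in Dmpk. Counts per gene sum over splice forms, so the values below describe the amount of each transcript and not its splicing.

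Between 17576503 and 23707138 reads were counted on genes in the NT libraries and between 17376897 and 19682221 in the WT libraries. In the first set, mitochondrial genes held 6.17 to 13.3% of these counts, and in NT7 and NT8 all 37 mitochondrial genes were listed at 0. A further 426 genes tested in the comparison with NT1 to NT8 had no count in NT1 to NT6 or WT, and none of them passed the test. By Xist and Y-linked counts, 4 of the 5 WT and 4 of the 8 NT mice were female, and WT1 was the only male WT mouse. WT1 stood apart from the other WT libraries in several genes, among them Col1a1, a collagen chain, at 1934 scaled counts (CPM) against 203 to 385, and results that rest on WT1 are given with and without it. The labels do not say more about how the libraries of a group relate, so each library was treated as separate. The spread behind the p-values was estimated within conditions over all 30 libraries, treated groups included. For NT1 to NT6 it was estimated over the 24 of the first set.

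Of 17518 genes tested with NT1 to NT8, 871 (4.97%) passed an adjusted p (padj) of 0.05 in edgeR's quasi-likelihood test, 602 higher and 269 lower in NT. With NT1 to NT6, 863 of 15832 genes (5.45%) passed, 613 higher and 250 lower. In both comparisons, 532 genes rose (3.36% of 15832) and 196 fell (1.24%), and below a gene is said to rise or fall only where it passed in both. The median log2 fold change was 1.15 among the genes that rose and -0.9 among those that fell, beside 0.03 over all genes tested. NT and WT libraries did not overlap in 517 of these 728 genes, beside 824 (5.2%) of all genes tested in both comparisons. Without WT1, 470 genes rose and 195 fell of 15776. The genes that changed included 625 protein-coding genes and 86 lncRNA genes, of which 76 rose.

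Members of 43 lists of pathway genes and 17 lists of cell type markers were then read in both comparisons. Of the 1094 pathway members tested, 57 rose and 20 fell (7.04% in all), and of the 171 cell type markers tested, 3 rose and 3 fell (3.51%). Over all genes tested in both comparisons 3.36% rose and 1.24% fell. Each count per list below is a description to be read beside these shares. In 19 pathway lists members only rose, in 4 they only fell, in 9 they did both, and 11 lists held no member that changed. The plot of list members shows where the calls lay.

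**Figure D1:**
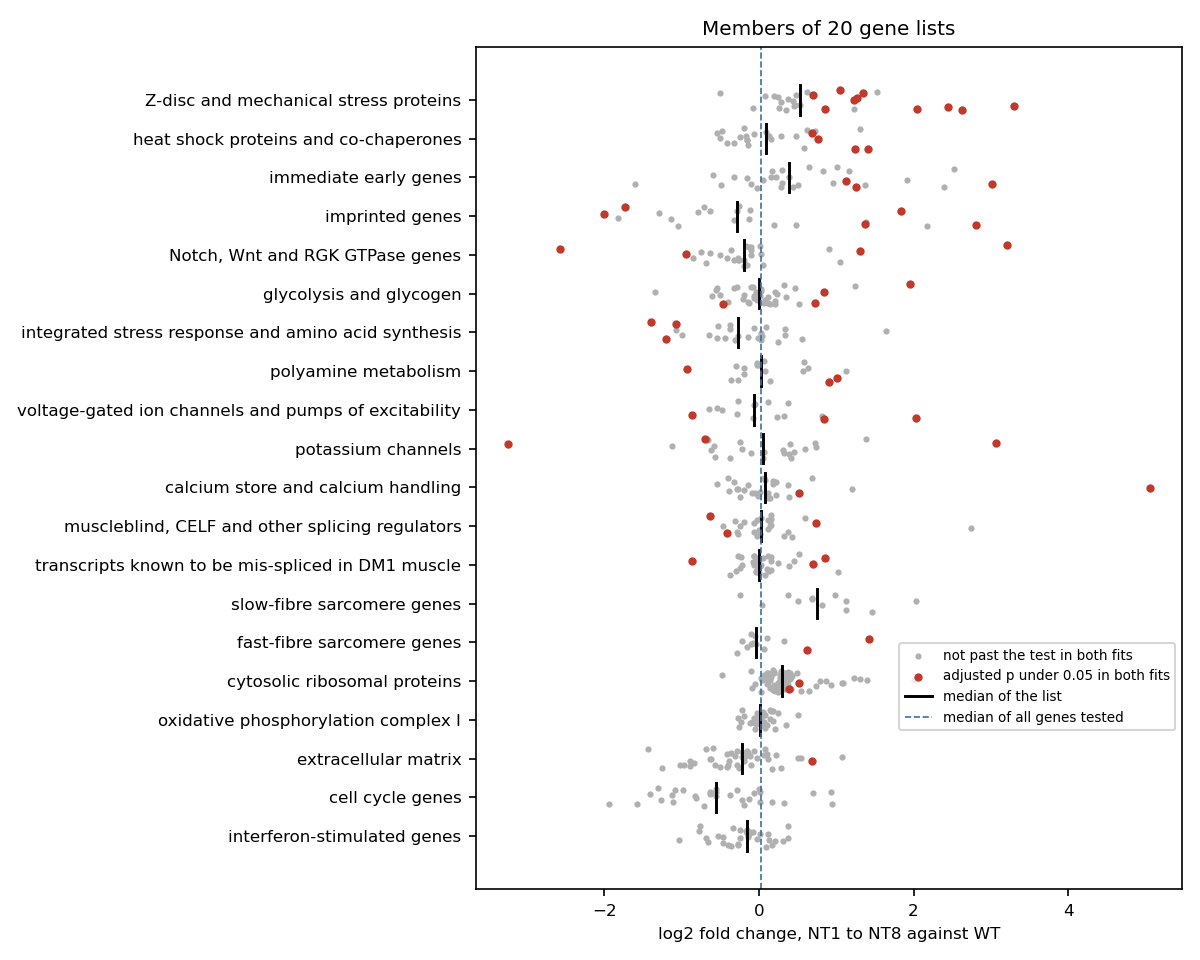
Log2 fold change of each tested member of 20 gene lists in NT1 to NT8 against WT, with members past the test in both comparisons in red, the list median as a black bar and the median of all genes as a dashed line. In the Z-disc list 10 of 27 members are red and all lie on the higher side. Members with no count in WT and Tnnc2, which reached 7046.7 CPM in the second set and at most 0.371 CPM in the first, are not drawn.

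Proteins of the Z-disc, which anchors the thin filaments of neighbouring sarcomeres and senses load, formed the list with the most changed members. Of 27 genes, 10 rose and none fell, and the list's median log2 fold change was 0.53. Over all genes tested in both comparisons 3.36% rose. The lists were written with earlier results of these data known, so this count is a description and not a test. WT values are given in the order WT1 to WT4 and then the WT library with no number of its own, all in CPM, counts scaled to a common library size. Klhl41, a Kelch protein of the sarcomere, was at 533, 566, 469, 466 and 486 CPM in WT and at 979 to 1399 CPM (median 1164) in NT. Every NT library lay above every WT library (log2 fold change 1.23 ± 0.1 SE, padj = 2.1e-08). Hspb7, a small heat shock protein of muscle, was at 131, 109.8, 136, 208 and 428 CPM in WT and at 829 to 1947 CPM (median 1172) in NT (log2 fold change 2.63 ± 0.31, padj = 2.57e-06). Fhl1, a LIM-domain protein that binds the titin spring, was at 349, 502, 531, 887 and 1121 CPM in WT and at 2381 to 5735 CPM (median 3478) in NT (log2 fold change 2.45 ± 0.3, padj = 5.12e-06). For both genes the lowest NT library was above the highest WT library.

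The other members that rose nucleate, cap or crosslink actin or respond to stretch. Lmod2, an actin nucleator at the pointed end of thin filaments, was at 57.2, 23.1, 53.9, 81.7 and 80.3 CPM in WT and at 167 to 369.9 CPM (median 235) in NT (log2 fold change 2.04 ± 0.33, padj = 0.000246). Pdlim3, an alpha-actinin-binding protein whose transcript is also mis-spliced in DM1, was at 614, 465, 559.5, 522 and 406 CPM in WT and at 755 to 1064 CPM (median 922) in NT (log2 fold change 0.85 ± 0.14, padj = 0.000377). Nrap, a scaffold of myofibril assembly, overlapped between the groups, at 752 to 1283 CPM in WT and 1180.4 to 2258 CPM in NT (log2 fold change 0.7 ± 0.14, padj = 0.00211). Flnc, Xirp1, Actn2 and Ankrd1 were chosen for naming after their values were seen. Flnc, the actin crosslinker filamin C, was at 533 to 790.3 CPM in WT and 1092 to 1987 CPM in NT (log2 fold change 1.27 ± 0.23, padj = 0.000805). Xirp1, an actin-binding repair protein, was at 117 to 224 CPM in WT and 228 to 728 CPM in NT (log2 fold change 1.35 ± 0.29, padj = 0.00447). Ankrd1, a stretch-induced titin-binding protein, was at 1.46 to 4.82 CPM in WT and 4.2 to 81.8 CPM in NT, and only NT2 lay within the WT range (log2 fold change 3.3 ± 0.65, padj = 0.00229). Actn2, alpha-actinin-2, was at 422 to 1432 CPM in WT and 1069 to 2548 CPM in NT (log2 fold change 1.05 ± 0.23, padj = 0.00607). When compared with NT1 to NT6 only, its padj rose to at most 0.0781 when NT1, NT6, WT2, WT3 or WT4 was left out, with a log2 fold change of 0.84 to 1.36 over all libraries left out. Without WT1 the list kept 10 members that rose and its median was 0.58.

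**Figure D2:**
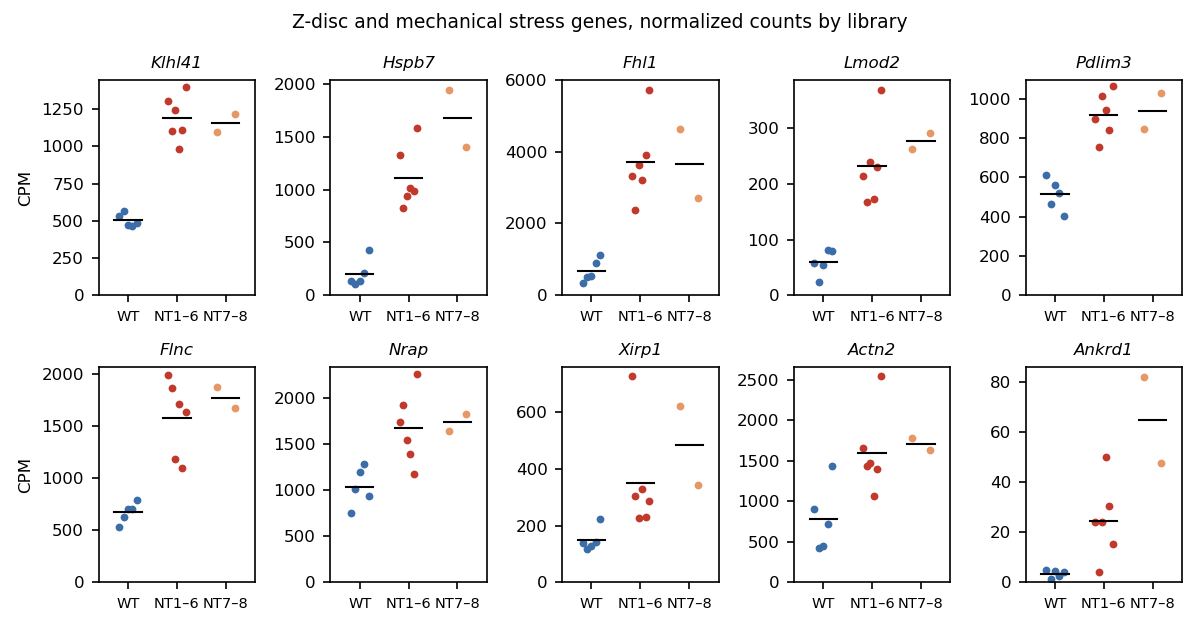
Normalized counts (CPM) of the 10 genes of the Z-disc list that rose, with each point a library, bars at the group means, and NT7 and NT8 of the second set apart. The lowest NT library of Klhl41 (979 CPM) lies above the highest WT library (566 CPM), while Nrap, Actn2 and Ankrd1 overlap.

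Pdlim7, another PDZ and LIM protein of the actin cytoskeleton that is not in the list, fell. It was at 499.6, 371, 425, 415 and 342 CPM in WT and at 63.8 to 191 CPM (median 118) in NT, with no overlap (log2 fold change -1.71 ± 0.32, padj = 0.00138). Vasp, which promotes actin filament elongation, was at 76.7 CPM in WT1, 25.7 to 31.7 CPM in the other WT libraries and 10.4 to 15 CPM in NT (log2 fold change -1.6 ± 0.28, padj = 0.000532). Genes on the opposite strand cover 30.5% of the exon bases of Vasp, and it is not stated whether counting used strand. Such cover was 45.9% for Pln, 26.9% for Sort1, 24.6% for Myh7, 24.3% for Ankrd1, 24.0% for Rrad, 23.0% for Ccn1 and 21.8% for Wnt5b.

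Promoters of sarcomere genes are known for CArG boxes, bound by serum response factor, and for motifs of MEF2 factors. RefSeq promoter windows (GRCm38.p6) from 250 bases before to 50 bases after the start were searched on both strands. Of 11065 genes tested in both comparisons that have a window, 180 (1.63%) held a CArG box and 278 (2.51%) a MEF2 motif. A CArG box was found in 7 of 381 genes that rose (1.84%) and in 8 of 149 that fell (5.37%). A MEF2 motif was found in 21 of those that rose (5.51%) and in 7 of those that fell (4.7%). The matches of 6 genes described here are shown because they include genes that rose, fell and passed in neither comparison, with the motif in capitals and 8 bases of flank on each side.
Fhl1, CArG box, chrX:56779573-56779598, + strand: ttggatcaCCTAAAATGGttaagaat
Actc1, CArG box, chr2:114052905-114052930, - strand: taaggcgaCCAAATAAGGcaaggtgg
Acta1, CArG box, chr8:123894831-123894856, - strand: cccgacacCCAAATATGGcttgggaa
Klhl41, MEF2 motif, chr2:69670049-69670074, + strand: gccggtgtCTATATTTAGccggtggg
Clcn1, MEF2 motif, chr6:42286626-42286651, + strand: agagacagCTATAAATAGctagaggt
Atf3, MEF2 motif, chr1:191183338-191183363, - strand: cctggaagCTATTAATAGcattacgt
These are matches of letters in the reference, and binding was not measured. Fhl1, Klhl41 and Atf3 rose, Actc1 and Clcn1 fell, and Acta1 changed in neither comparison.

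Channels that set the excitability of the fibre membrane were followed because reduced chloride conductance is the known basis of myotonia. Clcn1, the ClC-1 chloride channel, was at 151, 214, 195, 185 and 121 CPM in WT and at 67.9 to 118 CPM (median 96.5) in NT. The highest NT library lay just below the lowest WT library (log2 fold change -0.87 ± 0.18, padj = 0.00349). Of the 16 excitability genes, 2 rose and Clcn1 fell. Atp1b4, a muscle member of the Na,K-ATPase beta family, was at 2.11 to 6.73 CPM in WT and 8.93 to 38.5 CPM in NT (log2 fold change 2.03 ± 0.4, padj = 0.00233). Cacng1, the gamma subunit of the L-type calcium channel, was at 186 to 279.6 CPM in WT and 257 to 618 CPM in NT (log2 fold change 0.84 ± 0.22, padj = 0.021). Its padj reached 0.0719 when WT2 or the unnumbered WT library was left out of the comparison with NT1 to NT8, with log2 fold changes of 0.75 to 0.92 over all libraries left out.

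In the list of 25 potassium channel genes, 1 rose and 2 fell, beside 3.36% and 1.24% of all genes tested in both comparisons. Kcnn3, the small-conductance calcium-activated channel SK3, which is known to reappear in denervated and myotonic muscle, was at 2.07, 1.46, 3.01, 2.35 and 1.64 CPM in WT and at 14.4 to 21.2 CPM (median 17.5) in NT (log2 fold change 3.07 ± 0.28, padj = 5.62e-08). NT values spread over less than the gap between the groups. Kcns1, a silent subunit that modifies Kv2 channels, was at 7.53, 7.7, 6.87, 4.95 and 2.05 CPM in WT and between 0 and 0.21 CPM in NT. It had 555 counts over the WT libraries and 11 over the NT libraries (log2 fold change -6.39 ± 0.96, padj = 0.000139). Kcns1 was not in the potassium channel list and was named as 1 of the genes with the largest change. Kcnab1, a beta subunit of Kv1 channels, was at 10.7 to 55.5 CPM in WT and 1.95 to 6.23 CPM in NT, with no overlap. Kcnma1, the large-conductance BK channel, was at 21.9 to 41.9 CPM in WT and 13 to 21.4 CPM in NT (log2 fold change -0.7 ± 0.18, padj = 0.0235). Its padj reached 0.127 when WT2 or the unnumbered WT library was left out, with log2 fold changes of -0.78 to -0.52, and in the comparison with NT1 to NT6 it failed when any of 8 of the 11 libraries was left out (-0.82 to -0.56).

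A subunit and an inhibitor of voltage-gated calcium channels rose. Cacna2d4, an alpha-2-delta subunit that promotes surface expression of calcium channels, was at 1.91, 1.35, 2.01, 2.55 and 1.28 CPM in WT and at 12.1 to 27.9 CPM (median 16.8) in NT (log2 fold change 3.24 ± 0.23, padj = 1.82e-09). Rrad, a small GTPase of the RGK family that inhibits these channels, was at 2.01, 0.843, 1.6, 1.85 and 4.06 CPM in WT and at 6.69 to 32.9 CPM (median 19.9) in NT (log2 fold change 3.21 ± 0.53, padj = 0.000345). Neither gene overlapped between the groups. Of 28 calcium store and handling genes, Sln and Micu2 rose and none fell. Sln, sarcolipin, which inhibits the calcium pump of the sarcoplasmic reticulum, was at 0.337 to 5.39 CPM in WT and 38.1 to 108 CPM in NT. Micu2, a gatekeeper of mitochondrial calcium uptake, was at 40.3 to 48.5 CPM in WT and 54.4 to 81 CPM in NT (log2 fold change 0.52 ± 0.12, padj = 0.0084). The pump that sarcolipin inhibits, Atp2a1, was at 21889 to 31587 CPM in WT and 24988 to 32699 CPM in NT (log2 fold change -0.01, padj = 0.986). Pln, phospholamban, was at most 1.1 CPM in WT and 3.02 CPM in NT (padj = 0.238).

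**Figure D3:**
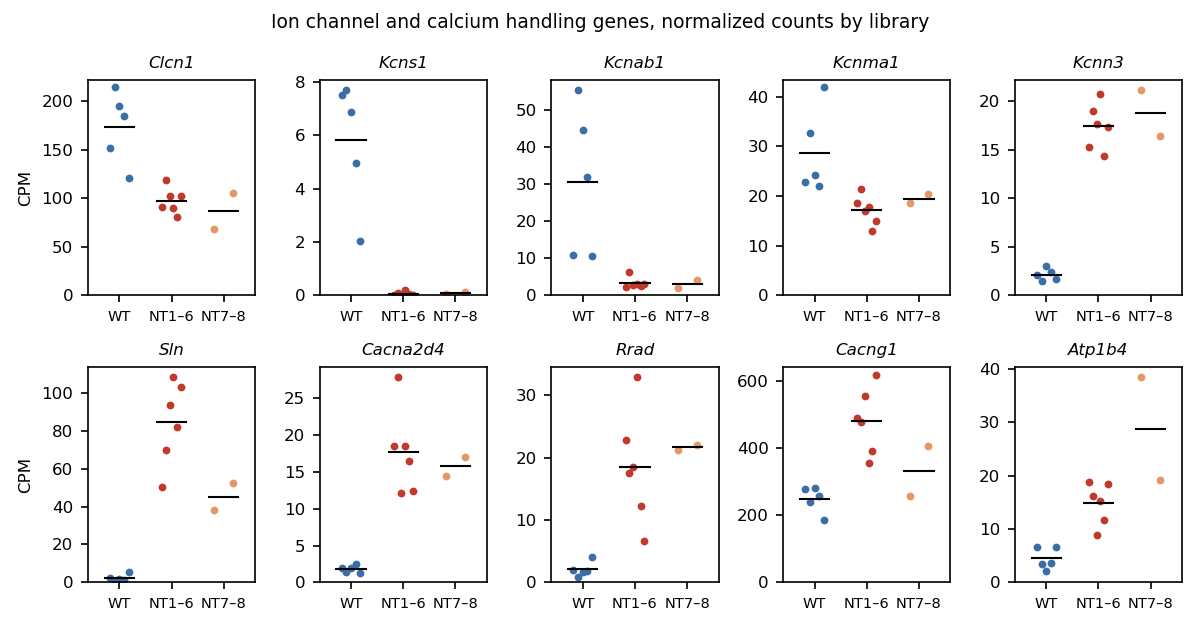
Normalized counts (CPM) of 10 ion channel and calcium handling genes, with each point a library, bars at the group means, and NT7 and NT8 of the second set apart. All 8 NT libraries of Clcn1 (67.9 to 118 CPM) lie below the WT libraries (121 to 214 CPM), and all those of Kcnn3 lie above.

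Sarcomere genes were also read by fibre type. Among 14 fast-fibre sarcomere genes 2 rose and none fell, beside 3.36% and 1.24% of all genes tested in both comparisons. Myh1, the fast myosin of type IIX fibres, was at 4418, 3123, 2810.1, 4483 and 7227 CPM in WT and at 5028 to 24303 CPM (median 9873) in NT (log2 fold change 1.43 ± 0.33, padj = 0.00941). Only the unnumbered WT library reached into the NT range. In the comparison with NT1 to NT6, its padj reached 0.0626 when NT6, WT2 or WT3 was left out, with log2 fold changes of 1.01 to 1.49. Myh4, the myosin of type IIB fibres, had a log2 fold change of -0.08 (padj = 0.886), and Myh2, of type IIA fibres, of 0.1 (padj = 0.933). Myom2, the M-band protein of fast fibres, was at 1325 to 1879.6 CPM in WT and 2113 to 3148 CPM in NT (log2 fold change 0.62 ± 0.14, padj = 0.00578). None of the 12 slow-fibre genes changed in either comparison, and 1 had an unadjusted p below 0.05 in both. Their median log2 fold change was 0.75 with NT1 to NT8 and 0.24 with NT1 to NT6, and Myh7, the slow myosin, ran from 0.163 CPM in NT1 to 522 CPM in NT7.

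Of 8 developmental and cardiac sarcomere genes, Actc1 and Myl9 fell and none rose, while 5 had positive log2 fold changes with NT1 to NT8. The list median was 0.23 with NT1 to NT8 and -0.08 with NT1 to NT6. Actc1, cardiac actin, was at 3185 CPM in WT1, at 195 to 696 CPM in the other WT libraries and at 16.3 to 78.3 CPM in NT, with no overlap. Acta1, the skeletal actin, was at 36081 to 50642 CPM in WT and 32728 to 53669.6 CPM in NT (log2 fold change 0.14, padj = 0.719). The open reading frames of these actins are identical at 977 of 1134 bases (86.2%), so counts of either may include reads of the other. Reads were mapped to the mouse genome only. Counts of mouse actin genes in NT may therefore also include reads of the human skeletal actin transgene, which was not tested. Myl9, a smooth muscle myosin light chain, had a log2 fold change of -0.89 (padj = 0.0156), and without WT1 or the unnumbered WT library its padj reached 0.122 with log2 fold changes of -1.03 to -0.59 over all libraries left out. In the comparison with NT1 to NT6 it failed when any of 7 of the 11 libraries was left out (-0.99 to -0.55). Embryonic myosin Myh3 was at 1.4 to 9.61 CPM in WT and 2.02 to 8.15 CPM in NT (padj = 0.711). Perinatal myosin Myh8, named after its values were seen, passed as higher with NT1 to NT8 (log2 fold change 1.21 ± 0.34, padj = 0.0366). It did not pass with NT1 to NT6 (0.93, padj = 0.116).

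Transcripts of the splicing factors that the repeat RNA engages did not pass the test. Mbnl1 had a log2 fold change of 0.01 (padj = 0.987), Mbnl2 of -0.27 (padj = 0.488) and Celf1 of 0.11 (padj = 0.454). Of 28 splicing regulators tested, Hnrnpa1 rose and Celf2 and Srsf6 fell. Celf2, a CELF-family regulator, was at 58.5, 106, 91.4, 74.8 and 63.3 CPM in WT and at 45.1 to 58 CPM (median 50.5) in NT, which lay just below the WT range (log2 fold change -0.63 ± 0.13, padj = 0.0029). In that with NT1 to NT6, its log2 fold change was -0.5 (padj = 0.0537) without WT2. Srsf6, a serine and arginine-rich factor, had a log2 fold change of -0.42 ± 0.098 (padj = 0.0102), and its padj reached 0.05 without the unnumbered WT library, where the log2 fold change was -0.35. Hnrnpa1 had a log2 fold change of 0.74 (padj = 0.0425) and failed the test when any of 8 of the 13 libraries was left out, with log2 fold changes of 0.6 to 0.85. Of 36 transcripts known to be mis-spliced in DM1 muscle, Pdlim3 and Nrap rose, Clcn1 fell, and the median was 0.0. Dmpk, the gene with the expansion in patients, had a log2 fold change of 0.32 (padj = 0.202).

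Regulators of muscle growth were read as a list of 39 genes of the myostatin, activin, BMP and IGF axis, of which 2 fell and none rose, a share near that of all genes. Igfbp5, a secreted protein that binds insulin-like growth factors, was at 1473, 1524, 1328, 827 and 839.9 CPM in WT and at 214 to 422 CPM (median 286) in NT. Its NT and WT ranges lay well apart (log2 fold change -1.96 ± 0.22, padj = 1.44e-06). Acvr2a, a receptor for activin and myostatin, was at 26.7, 59.3, 50.6, 33.7 and 31.2 CPM in WT and at 12.7 to 23.2 CPM (median 19) in NT (log2 fold change -1.11 ± 0.22, padj = 0.00188), and genes on the opposite strand cover 30.5% of its exon bases. Mstn, myostatin itself, had a log2 fold change of -0.66 (padj = 0.145), and Fst, its binding inhibitor follistatin, of -0.3 (padj = 0.493). The ubiquitin ligases of atrophy did not pass, with log2 fold changes of 0.45 (padj = 0.328) for Trim63 and 0.13 (padj = 0.847) for Fbxo32.

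Imprinted genes, many of which tune growth from a single parental allele, changed in both directions, 3 higher and 2 lower of 21. Grb10, an adaptor that dampens insulin and IGF receptor signalling, was at 92.6, 74, 78.2, 64.5 and 68.2 CPM in WT and at 15.8 to 40.6 CPM (median 19.5) in NT (log2 fold change -1.73 ± 0.21, padj = 4.47e-06). The other 4 lie together on chromosome 12, where Dlk1 is expressed from the paternal allele and the noncoding RNAs Meg3, Rian and Mirg from the maternal allele. Dlk1, a Notch-like ligand, was at 1.34 to 7.68 CPM in WT and 0.41 to 1.48 CPM in NT (log2 fold change -2.0 ± 0.44, padj = 0.00594). Rian was at 41.5, 11.7, 8.63, 12.2 and 10.9 CPM in WT and at 81 to 216 CPM (median 95.9) in NT (log2 fold change 2.81 ± 0.48, padj = 0.000489). Meg3 was at 29.8 CPM in WT1, 6.16 to 10.5 CPM in the other WT libraries and 24.2 to 48.9 CPM in NT (log2 fold change 1.37 ± 0.34, padj = 0.0156). Mirg, the least abundant, had a log2 fold change of 1.84 ± 0.5 (padj = 0.0268). The call of Dlk1 was lost with NT1 to NT6 without WT1 (log2 fold change -1.32, padj = 0.0711). With NT1 to NT8, that of Meg3 was lost without WT2, WT3 or the unnumbered WT library (log2 fold changes of 1.2 to 2.02 over all libraries left out) and that of Mirg without NT6, WT2, WT3 or WT4 (1.55 to 2.26). With NT1 to NT6, the call of Meg3 was also lost without NT1, WT2, WT3, WT4 or the unnumbered WT library (1.25 to 2.06).

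Genes of several stress responses were followed as separate lists. Of 19 p53 targets tested, Eda2r and Phlda3 rose. Eda2r, a receptor of the TNF family for ectodysplasin-A2, was at 6.89, 7.53, 11.4, 6.45 and 9.09 CPM in WT and at 40.4 to 128 CPM (median 84) in NT (log2 fold change 3.34 ± 0.28, padj = 2.1e-08). Phlda3, an inhibitor of Akt signalling, was at 12, 25.9, 34.1, 57.7 and 61.7 CPM in WT and at 91.1 to 199 CPM (median 149) in NT (log2 fold change 1.92 ± 0.34, padj = 0.000696). Neither gene overlapped between the groups. Eda2r was also the only 1 of 24 FoxO and atrophy genes that rose.

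Of 29 immediate early genes, which respond to activity and injury within minutes, Atf3, Jun and Ccn1 rose and the median log2 fold change was 0.39. Atf3, a stress-induced transcription factor, was at 7.79, 2.25, 3.61, 3.6 and 16.4 CPM in WT and at 26.8 to 99.6 CPM (median 46.9) in NT (log2 fold change 3.01 ± 0.55, padj = 0.00119). Jun, a subunit of AP-1, was at 77.5, 56.8, 85, 84.4 and 72.4 CPM in WT and at 92 to 254 CPM (median 153) in NT (log2 fold change 1.12 ± 0.25, padj = 0.00656). Neither overlapped. Ccn1, a matricellular protein, had a log2 fold change of 1.25 ± 0.34 (padj = 0.0264) and lost its call with NT1 to NT8 without NT3, NT6 or any numbered WT library, with log2 fold changes of 1.05 to 1.35 over all libraries left out. Fos, named after its values were seen, ranged from 3.18 CPM in NT8 to 236 CPM in NT6 and from 3.88 to 37.8 CPM in WT (padj = 0.181).

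Of 25 heat shock proteins and co-chaperones, 4 rose and none fell, and the median was 0.09 with NT1 to NT8 and -0.11 with NT1 to NT6. Hsf2, a heat shock transcription factor, was at 17.8 to 23 CPM in WT and 27 to 40.8 CPM in NT (log2 fold change 0.77 ± 0.14, padj = 0.000716). The small heat shock proteins Hspb1 and Hspb6, which bind cytoskeletal and sarcomere proteins, had log2 fold changes of 1.41 ± 0.29 (padj = 0.00269) and 1.24 ± 0.26 (padj = 0.00316). Dnajb4, a co-chaperone of Hsp70, was close to the threshold (log2 fold change 0.69, padj = 0.0448) and failed when any of 11 of the 13 libraries was left out (log2 fold changes of 0.56 to 0.79). None of 21 genes of the unfolded protein response changed in edgeR or DESeq2, and 1 had an unadjusted p below 0.05 in both comparisons.

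In the list of the integrated stress response and amino acid synthesis, genes of proline synthesis and a folate enzyme changed. Of 25 members tested, Pycr1, Aldh1l2 and Aldh18a1 fell and none rose. With NT1 to NT8 alone 1 member passed as higher, and DESeq2 called 1 higher and 3 lower in both comparisons. Pycr1, the last enzyme of proline synthesis, was at 7.84, 4.49, 6.82, 4.55 and 5.91 CPM in WT and at 1.76 to 3.09 CPM (median 2.61) in NT, with no overlap (log2 fold change -1.2 ± 0.2, padj = 0.000469). Aldh1l2, a mitochondrial folate enzyme, was at 4.62 to 9.27 CPM in WT and 1.5 to 4.97 CPM in NT (log2 fold change -1.4 ± 0.35, padj = 0.0166). Aldh18a1, the first enzyme of proline synthesis, was at 9.43 CPM in WT1 and 2.7 to 4.52 CPM in the other WT libraries against 1.6 to 3.31 CPM in NT. Its log2 fold change was -1.07 (padj = 0.0274) and without WT1 -0.64 (padj = 0.229), and NT4, NT5 and the unnumbered WT library also decided its call.

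Polyamine genes included the rate-limiting enzymes of synthesis and breakdown. Odc1, ornithine decarboxylase, was at 98.9 CPM in WT1, 55.1 to 64.5 CPM in the other WT libraries and 96.5 to 169 CPM in NT (log2 fold change 0.9 ± 0.18, padj = 0.00247). Sat1, which acetylates polyamines for breakdown, was at 7.62 to 19.1 CPM in WT and 18.9 to 29.4 CPM in NT (log2 fold change 1.01 ± 0.22, padj = 0.00591). Mtap, which salvages methionine from the by-product of polyamine synthesis, was at 16.7, 19.8, 18.2, 16.8 and 16.5 CPM in WT and at 6.74 to 11.1 CPM (median 9.29) in NT (log2 fold change -0.93 ± 0.17, padj = 0.00138). Mtap alone did not overlap. The other 15 of the 18 members did not pass in both comparisons.

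Energy metabolism differed at single enzymes rather than along pathways. None of 36 complex I genes and none of 43 genes of complexes II to V changed in either comparison, with medians of 0.01 and 0.02. At an unadjusted p below 0.05, 1 complex I gene and 0 genes of complexes II to V passed in both comparisons, and DESeq2 called none of either list. The 13 mitochondrially encoded protein genes also held no call, and with NT1 to NT6, since NT7 and NT8 had no counts for them, their median was -0.2. Of 41 glycolysis and glycogen genes, Fbp2, Gys1 and Pfkfb1 rose and Epm2a fell. Fbp2, the muscle fructose bisphosphatase, was at 17.5, 18.2, 22, 19.6 and 9.5 CPM in WT and at 42.3 to 114 CPM (median 63.3) in NT (log2 fold change 1.96 ± 0.26, padj = 1.5e-05). Gys1, muscle glycogen synthase, was at 353, 419.8, 374, 419 and 451 CPM in WT and at 518 to 816 CPM (median 672) in NT (log2 fold change 0.73 ± 0.14, padj = 0.0015). Neither gene overlapped. Pfkfb1, which sets the level of fructose 2,6-bisphosphate, had a log2 fold change of 0.84 ± 0.17 (padj = 0.0029). Epm2a, the glycogen phosphatase laforin, had one of -0.46 ± 0.098 (padj = 0.00399), and with NT1 to NT6 it lost its call without NT1, WT2, WT3 or WT4 (log2 fold changes of -0.56 to -0.38).

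Of 45 genes of fatty acid use, only Ucp2, a mitochondrial carrier, rose (log2 fold change 1.48 ± 0.35, padj = 0.0107). Ogdhl, a relative of the 2-oxoglutarate dehydrogenase subunit, was at 0.562 to 1.01 CPM in WT and 5.71 to 14.3 CPM in NT (log2 fold change 3.54 ± 0.37, padj = 5.12e-07). Mb, the oxygen store myoglobin, was at 713, 597, 799, 1193 and 1961 CPM in WT and at 1978 to 5483 CPM (median 2956) in NT (log2 fold change 1.62 ± 0.33, padj = 0.00287). Its lowest NT value lay just above the highest WT value, and genes on the opposite strand cover 30.6% of its exon bases.

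Of 23 acetylcholine receptor and denervation genes, Runx1 and Ncam1 rose. Runx1, a transcription factor induced by loss of innervation, was at 4.19, 2.64, 2.56, 2.6 and 3.75 CPM in WT and at 5.73 to 14.1 CPM (median 9.86) in NT (log2 fold change 1.63 ± 0.24, padj = 9.48e-05). Ncam1, a neural cell adhesion molecule, was at 5.4 to 9.66 CPM in WT and 11.8 to 25.3 CPM in NT (log2 fold change 1.26 ± 0.25, padj = 0.00266). The receptor subunits themselves did not pass, with log2 fold changes of 0.32 (padj = 0.403) for Chrna1 and 0.99 (padj = 0.241) for the fetal subunit Chrng. Uchl1, a ubiquitin hydrolase abundant in neurons, was at 3.34, 1.52, 1.05, 1.9 and 6.01 CPM in WT and at 25.8 to 53.3 CPM (median 29.7) in NT (log2 fold change 3.63 ± 0.41, padj = 1.61e-06), and genes on the opposite strand cover 31.3% of its exon bases.

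Of 22 myogenic regulators and fusion genes, Tead4 and Myf6 rose. Tead4, a transcription factor of the Hippo pathway that acts in myoblast differentiation, was at 2.25 to 5.45 CPM in WT and 8.05 to 17.8 CPM in NT (log2 fold change 1.9 ± 0.26, padj = 3.56e-05). Myf6, the regulator that persists in adult fibres, had a log2 fold change of 0.6 (padj = 0.0426) and failed when any of 11 of the 13 libraries was left out (0.53 to 0.64). Myog, which drives differentiation, had a log2 fold change of -0.5 (padj = 0.561). Of 18 calcineurin and NFAT genes, Nfatc2 and Camk2d rose. Camk2d, a calcium and calmodulin-dependent kinase, was at 40.4 to 64 CPM in WT and 73.6 to 129 CPM in NT (log2 fold change 0.93 ± 0.19, padj = 0.00299). Sntb1, a syntrophin that links signalling proteins to dystrophin, was at 3.24 to 7.47 CPM in WT and 16.3 to 44.7 CPM in NT (log2 fold change 2.19 ± 0.39, padj = 0.000862).

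Of 28 Notch, Wnt and RGK genes tested, Wnt5b and Rrad rose and Dkk3 and Wnt4 fell. Dkk3, a secreted glycoprotein related to Wnt inhibitors, was at 5.3, 43.4, 29.8, 33 and 14.5 CPM in WT and at 3.3 to 6.84 CPM (median 3.88) in NT, and WT1 lay within the NT range (log2 fold change -2.57 ± 0.33, padj = 1.16e-05). Wnt4, a secreted ligand, was at 22.7 to 39.6 CPM in WT and 10.2 to 22.7 CPM in NT (log2 fold change -0.94 ± 0.21, padj = 0.00687) and failed with NT1 to NT6 when any of 5 of the 11 libraries was left out (-0.89 to -0.7). Sort1, a sorting receptor that binds pro-neurotrophins, was at 130.2, 174, 161, 125 and 106 CPM in WT and at 45.7 to 92 CPM (median 67.2) in NT (log2 fold change -1.05 ± 0.16, padj = 8.15e-05). Adamtsl1, a secreted matrix protein, was at 9.25 to 19.9 CPM in WT and 2 to 4.72 CPM in NT (log2 fold change -2.08 ± 0.27, padj = 1.16e-05). Fam171b, a membrane protein, was at 0.4 to 1.17 CPM in WT and 6.65 to 20.8 CPM in NT (log2 fold change 3.69 ± 0.37, padj = 3.13e-07).

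Genes of protein synthesis and turnover had small positive log2 fold changes, few of which passed the test in edgeR. Of 77 cytosolic ribosomal protein genes, 73 had positive log2 fold changes, with a median of 0.3, and Rpl10 and Rpl4 rose (0.52 ± 0.12, padj = 0.00975, and 0.39 ± 0.098, padj = 0.0153). Rpl4 lost its call without WT1 with NT1 to NT8 (padj = 0.0604). At an unadjusted p below 0.05, 23 of the ribosomal genes passed in both comparisons, and DESeq2 called 11, all higher. Of 31 proteasome subunits, 29 had positive log2 fold changes, with a median of 0.12, and Psmd8 and Psmd7 rose. At an unadjusted p below 0.05, 7 subunits passed in both comparisons, and DESeq2 called 4, all higher. The log2 fold changes of Psmd8 and Psmd7, 0.59 and 0.35, had padj of 0.0127 and 0.0392, and Psmd7 failed when any of 7 of the 13 libraries was left out (0.3 to 0.39). Psmd8 failed without WT3 (padj = 0.0536) and, with NT1 to NT6 only, when any of 6 of the 11 libraries was left out (0.51 to 0.72).

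Genes of inflammation, the matrix and the cell cycle were read as lists, beside 3.36% of all genes that rose and 1.24% that fell in both comparisons. None of 32 interferon-stimulated genes changed in edgeR or DESeq2, 0 had an unadjusted p below 0.05 in both comparisons, and their median was -0.16. Of 22 complement and acute-phase genes tested, Ptx3, Il6ra and Serpina3n rose. Il6ra, the receptor for interleukin-6, was at 3.24 to 4.3 CPM in WT and 5.62 to 20.8 CPM in NT (log2 fold change 1.65 ± 0.4, padj = 0.0128). Ptx3, a soluble pattern-recognition protein, had a log2 fold change of 1.02 ± 0.2 (padj = 0.00175). Serpina3n, an acute-phase protease inhibitor, had one of 0.94 ± 0.23 (padj = 0.0149), and without the unnumbered WT library one of 0.8 (padj = 0.0543). Of 25 chemokine, cytokine and receptor genes tested, only Icam1, an adhesion molecule, fell (log2 fold change -1.08, padj = 0.00898), and without the unnumbered WT library it had one of -0.81 (padj = 0.0656). Of 45 extracellular matrix genes, 34 had negative log2 fold changes, with a median of -0.22 that was -0.04 without WT1, and Tgfb3 rose (0.69, padj = 0.0119). At an unadjusted p below 0.05, 12 of the matrix genes passed in both comparisons, and DESeq2 called 1 higher and 2 lower. Tgfb3 failed with NT1 to NT6 when any of 8 of the 11 libraries was left out, with log2 fold changes of 0.52 to 0.64. None of 32 cell cycle genes changed in both comparisons in edgeR or DESeq2, 7 had an unadjusted p below 0.05 in both, and their median of -0.56 was -0.16 without WT1. Lists of circadian clock genes, metallothioneins and zinc transporters, glucocorticoid receptor targets and genes of the Dmpk locus held no member that changed in both comparisons in edgeR, with 2, 2, 2 and 1 members at an unadjusted p below 0.05 in both. DESeq2 called 1, 1, 0 and 0 of their members.

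Markers of the cell types that a piece of muscle holds were summed per library. In bulk tissue, fewer cells of a type and less RNA per cell cannot be told apart. The 15 myofibre markers summed to 128353.3 to 167585.9 CPM in WT and to 123120.7 to 178779.9 CPM in NT, so that fibre transcripts were abundant in every library. Markers of fibro-adipogenic progenitors (16), tendon cells (12), endothelial cells (16), pericytes (11) and adipocytes (14) held no call in both comparisons in edgeR, and their summed levels overlapped. At an unadjusted p below 0.05, 3, 2, 7, 1 and 0 of them passed in both, and DESeq2 called 2, 1, 0, 0 and 0. All 16 endothelial markers had negative log2 fold changes, with a median of -0.5 (-0.37 without WT1), and 7 had an unadjusted p below 0.05 in both comparisons while edgeR and DESeq2 called none. Pecam1, an adhesion molecule of these cells, had a log2 fold change of -0.38 (padj = 0.15). Of 16 macrophage markers tested, Cd68, a lysosomal protein, rose, from 1.18 to 2.71 CPM in WT to 3.09 to 6.99 CPM in NT (log2 fold change 1.51 ± 0.3, padj = 0.00225), while Adgre1, which encodes F4/80, had a log2 fold change of -0.29 (padj = 0.81). The macrophage sums overlapped, at 74.5 to 120.2 CPM in WT and 88.9 to 165.7 CPM in NT. T cell, natural killer cell and neutrophil markers were at or near 0 in all libraries, with sums of at most 4.13 and 1.76 CPM.

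**Figure D4:**
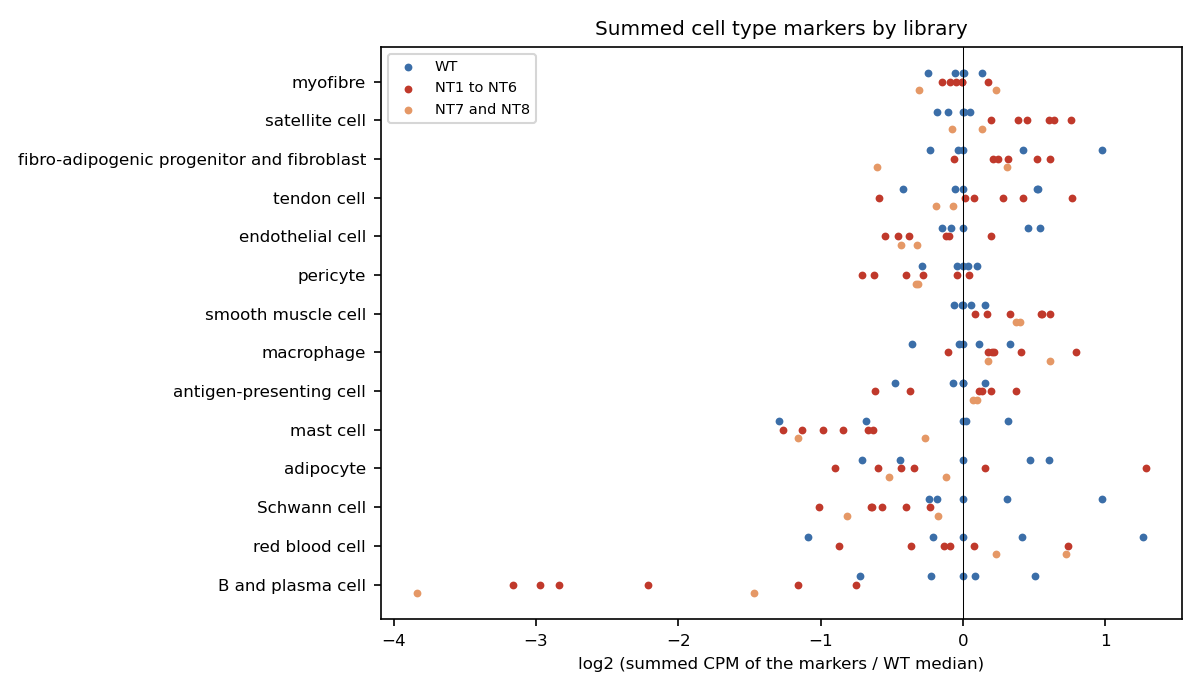
Summed CPM of the markers of 14 cell types in each library, as the log2 ratio to the WT median, with WT, NT1 to NT6 and NT7 and NT8 as separate colours. NT and WT overlap in most rows, while the Schwann cell sums of NT (78.4 to 139.7 CPM) reach into the WT range (133.6 to 310.6 CPM) only at its lower end. Single genes dominate 2 rows. Des (WT mean 2955 CPM) holds most of the satellite cell sum (WT median 3236 CPM). Synpo2 (WT mean 701 CPM), which rose, holds most of the smooth muscle sum (WT median 947 CPM). Of the 11 smooth muscle markers, 7 had negative log2 fold changes, with a median of -0.44.

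Markers of satellite cells, the stem cells of muscle, gave different calls with and without WT1. With all libraries none of 13 changed in both comparisons in edgeR, 4 had an unadjusted p below 0.05 in both, and DESeq2 called 1. Without WT1, Pax7, Myf5, Chodl and Fgfr4 rose, of which the last 3 are named after their values were seen, and the median log2 fold change went from 0.17 to 0.56. WT1 was also the only male WT mouse, so without it all WT libraries were female while NT held both sexes. Pax7, the transcription factor that marks these cells, was at 2.65 CPM in WT1, at 0.225 to 0.802 CPM in the other WT libraries and at 1.63 to 2.56 CPM in NT. Its log2 fold change was 1.16 (padj = 0.207) with WT1 and 2.0 ± 0.49 (padj = 0.016) without it. Fgfr4, a fibroblast growth factor receptor, was at 6.89 CPM in WT1, at 0.506 to 0.953 CPM in the other WT libraries and at 1.43 to 3.24 CPM in NT. Its log2 fold change was 0.41 (padj = 0.681) with WT1 and 1.93 ± 0.34 (padj = 0.00073) without it. Myf5, the earliest myogenic factor, had a log2 fold change of 1.15 ± 0.28 (padj = 0.0131) and Chodl, a membrane lectin, of 0.83 ± 0.23 (padj = 0.0405) without WT1. Other members, such as Cdh15 (0.06, padj = 0.903) and Vcam1 (-0.06, padj = 0.958), did not pass without WT1.

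Of the 16 markers of Schwann cells, the myelinating cells of nerve, 14 had negative log2 fold changes, with a median of -0.82, and Mbp and Mag, proteins of the myelin sheath, fell. At an unadjusted p below 0.05, 10 of the 16 passed in both comparisons, and DESeq2 called 6, all lower. Mbp was at 44.2, 19.5, 32.7, 23.8 and 16.1 CPM in WT and at 9.41 to 22.8 CPM (median 13.1) in NT (log2 fold change -0.91 ± 0.26, padj = 0.0373). Mag was at 0.822 to 1.54 CPM in WT and 0.341 to 0.717 CPM in NT (log2 fold change -1.17 ± 0.34, padj = 0.0398). WT1 had the highest summed level, 310.6 CPM, and without it neither Mbp (log2 fold change -0.67, padj = 0.179) nor Mag (-1.02, padj = 0.129) passed, while the median was -0.63. Leaving out other libraries also lost these calls, in 9 of 13 cases for Mbp (-1.05 to -0.67) and 10 of 13 for Mag (-1.28 to -1.02). How much nerve each piece of muscle held was not tested.

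Ighm, the heavy chain of immunoglobulin M, was at 648, 389, 483, 276 and 455 CPM in WT and at 30.3 to 270.4 CPM (median 79.7) in NT. The highest NT library lay just below the lowest WT library (log2 fold change -1.95 ± 0.53, padj = 0.0313). It made up nearly all of the summed B and plasma cell markers, which ran from 276.8 to 650.3 CPM in WT and from 32.0 to 271.3 CPM in NT, and only 3 of the 10 markers were abundant enough to test. Cd79a, a part of the B cell receptor named after its values were seen, was at most 0.251 CPM in WT and 0.205 CPM in NT. The call of Ighm was lost when any of 8 of the 13 libraries was left out, with log2 fold changes of -2.25 to -1.78. Without WT1 it was -1.78 (padj = 0.0812).

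Some changed genes lay next to or within each other. Windows of 1 Mb that held the starts of at least 4 changed genes merged into 14 stretches with 61 changed genes in all, and in 7 stretches all of them rose. The share of tested genes that changed varied widely between stretches. It was as low as 6 of 93 and 4 of 39 on chromosome 7 and 5 of 51 on chromosome 11. Over all genes tested in both comparisons 3.36% rose and 1.24% fell. The stretches described below are among those with the larger shares. Positions are in GRCm39. On chromosome 18, from 57506527 to 57864145, 4 of 5 tested genes rose. Ctxn3, a small membrane protein, was at 6.31, 12, 13.8, 12.6 and 9.4 CPM in WT and at 45.8 to 84.7 CPM (median 67) in NT (log2 fold change 2.63 ± 0.24, padj = 5.62e-08). Its neighbours were Ccdc192, at 0 to 0.565 CPM in WT and 7.73 to 20.6 CPM in NT, and the lncRNA gene 4930511M06Rik (log2 fold change 3.85 ± 0.48, padj = 7.94e-06). The last, 2210409D07Rik, lies within the span of Ccdc192 and had no count in WT and 36 counts in NT. On chromosome 6, from 119213408 to 119900382, 4 of 8 tested genes rose, Cacna2d4, Lrtm2, Wnt5b and Rad52. Lrtm2, a leucine-rich repeat membrane protein, lies within the span of Cacna2d4, so the 2 genes share 1 locus. It was at 0.795, 0.225, 1, 1.3 and 0.616 CPM in WT and at 15.4 to 35.5 CPM (median 20.3) in NT (log2 fold change 4.76 ± 0.41, padj = 2.31e-08).

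On chromosome 3, from 144528227 to 145600032, 5 of 11 tested genes rose, among them 3 of the Clca family of chloride channel accessory proteins, which had no count in any WT library. A count of 3 over the WT group corresponds to 0.0312 CPM. Against that floor Clca4a (251 counts in NT) was at least 46.0-fold higher, Clca1 (120 counts) at least 22.1-fold and Clca3b (72 counts) at least 13.4-fold. They are members of 1 gene family, so the counting could split reads between them, and their levels are uncertain to that extent. On chromosome 1, from 36736962 to 37449820, 5 of 7 tested genes rose, from Actr1b (log2 fold change 0.7 ± 0.14, padj = 0.00181) to Vwa3b (2.01 ± 0.21, padj = 3.21e-07) and Zap70, a T cell kinase with 6 counts in WT and 131 in NT (3.5 ± 0.9, padj = 0.0189). On chromosome 2, from 28816961 to 29678514, 4 of 10 tested genes rose, with Cfap77, a ciliary protein, at 0.0501 to 0.2 CPM in WT and 1.05 to 1.88 CPM in NT (3.39 ± 0.39, padj = 1.94e-06). Near Kcns1, on the same chromosome, the lncRNA gene A730032A03Rik also fell, with 49 counts in WT and 2 in NT (log2 fold change -4.88 ± 0.95, padj = 0.00494), while Pkig and Zfp335os rose, and 43 genes within 1 Mb were tested.

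**Figure D5:**
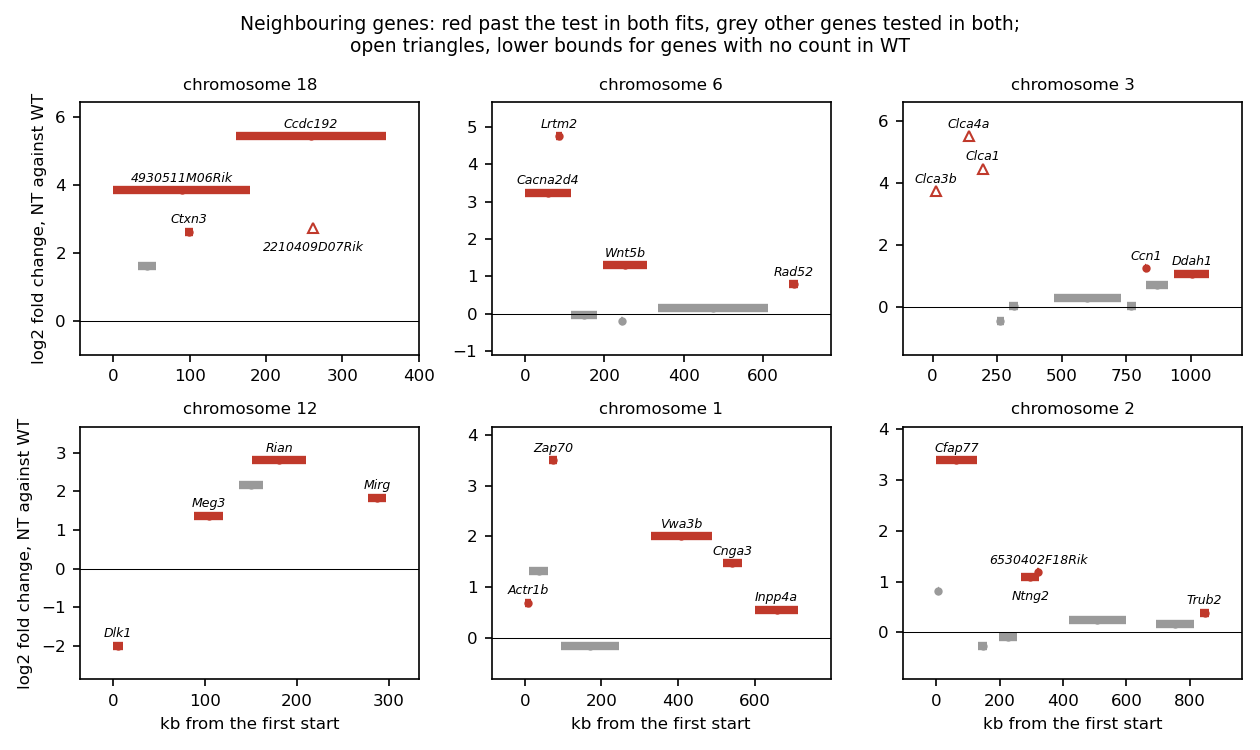
Log2 fold change of neighbouring genes in 6 stretches, by distance in kb from the first start, with bars as long as the genes, red for genes past the test in both comparisons, grey for the others tested in both, and open triangles for lower bounds where WT had no count. On chromosome 12 Dlk1 lies below 0 while Meg3, Rian and Mirg lie above, and in the other 5 stretches all red genes lie above 0.

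The NT libraries also differed from each other. Among the named genes, the largest SD over NT1 to NT6, on the scale of log2(CPM + 1), was that of Ighm (1.02), followed by Cyp4f39 (0.95), Ccn1 (0.76), Actc1 (0.74) and Rrad (0.73). Cyp4f39, a cytochrome P450 of skin lipid synthesis, was at 10.2 to 17.7 CPM in WT and 0.337 to 5.99 CPM in NT (log2 fold change -2.65 ± 0.59, padj = 0.00623), and with NT1 to NT6 it failed without NT1, NT2 or WT4 (-2.86 to -2.2). Batf2, a transcription factor induced by interferon, was at 14.1 and 16.4 CPM in NT7 and NT8, at 1.14 to 3.44 CPM in NT1 to NT6 and at 0.1 to 0.636 CPM in WT. Its log2 fold change was 3.96 ± 1.16 (padj = 0.0478) with NT1 to NT8 and 2.58 ± 0.7 (padj = 0.0314) with NT1 to NT6, and it failed when any of 10 of the 13 libraries was left out (3.45 to 4.31). Along the first principal component of the first set (26.6% of the variance), WT libraries lay between -49.8 and -23.6 and NT libraries between 4.81 and 42.8. There the groups did not overlap, and NT4 was the NT library nearest to WT. Along that of all 30 libraries, NT7 and NT8 lay at 191 and 192. On that axis NT1 to NT6 (-50 to -42.6) and WT (-52.2 to -44.3) overlapped, so it set apart the deposited sets and not the genotypes.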

How the data were processed

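The authors enriched quadriceps RNA for poly(A), sequenced paired-end reads of 150 bases, mapped them to the mouse genome GRCm39 (HISAT2 2.0.5 per the labels' processing notes) and deposited raw counts per gene for 56748 genes, with no normalization. Counting options are not given in the sources used here. Libraries were grouped by their labels. 1 WT column could be matched to its group but not to a number.

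The tests used edgeR 4.0.16 (R 4.3.3), with filterByExpr, TMM normalization and a robust quasi-likelihood F-test, with 1 coefficient for each of 8 conditions and p-values adjusted by the Benjamini-Hochberg method. The model held all 30 libraries or, for NT1 to NT6, the 24 of the first set. CPM are TMM-normalized. Totals of 17376897 counts or more gave 1 count a weight of under 0.1 CPM. The test was first tested on simulated data. Alternatives were DESeq2 1.42.0, other size factors, other filters, covariates, fewer groups and each library left out.

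Members and gene lists were chosen with earlier results of these data known. Of 1318 listed symbols 1316 matched. Named genes are the 12 higher and 12 lower with the largest change whose groups did not overlap and averaged 5 CPM or more in the higher group, up to 5 changed members per list, a fixed set, neighbours within 1 Mb and the 5 most variable genes. Others are said to be named after their values were seen. RefSeq promoters (GRCm38.p6) were matched by symbol. Some genes that this rule names are not reported here.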

Additional observations from a re-analysis of the deposited data

Results flagged for a closer look

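Among 136 named genes, 17 of 272 groups of 5 or 8 libraries (6.25%) held a library far from the others by Dixon's test at the 95% level, where chance gives about 1 in 20. WT1 accounted for 9 of them. It was high in Myo1a (2.07 CPM, nearest library 0.6), Vasp (76.7, nearest 31.7), Odc1 (98.9, nearest 64.5), Rian (41.5, nearest 12.2), Chrna1 (32.6, nearest 17.4), Col1a1 (1934.1, nearest 384.8) and Fgfr4 (6.89, nearest 0.953). It was low in Myh7 (1.54 CPM, nearest 29.5) and Fbxo32 (52.6, nearest 258.2). The unnumbered WT library was low in Fbp2 (9.5 CPM, nearest 17.5), Synpo2 (591.3, nearest 711.8) and Sntb1 (3.24, nearest 6.05), and WT2 in Ccn1 (17.7, nearest 28.5). Among the NT libraries, NT1 was high in Wnt5b (2.22 CPM, nearest 1.44) and Dkk3 (6.84, nearest 4.49), NT7 was high in Dnajb4 (132.0, nearest 88.7) and NT8 was low in Pdgfra (11.6, nearest 23.4).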

How the results depend on the processing

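With NT1 to NT8, 871 genes changed in the main analysis, 1971 with DESeq2 (1469 higher) and 1311 with only NT and WT in the model. For changes above 2-fold the 419 genes became 264 with at least 10 counts in every library and 1128 with DESeq2 (974 higher). With NT1 to NT6, the 863 genes became 1296 with only NT and WT in the model and 1438 when a covariate for the naming pattern of the libraries was added, chosen after seeing the data. The 432 genes above 2-fold became 246 with at least 10 counts in every library, a filter that also left fewer genes to test. Leaving out single libraries gave 636 to 861 and 614 to 826 genes, and above 2-fold 348 to 421 and 346 to 428. The causes were not tested. Replicate numbers 1 to 4 are shared by NT and WT, but same-numbered libraries deviated together with correlations of -0.0298 to 0.238, so the numbers were not taken as pairs. WT2 correlated best with NT4. With the replicate block, 631 genes changed, and 326 above 2-fold, against 680 and 344 without it in the same 8 libraries. Of 100 named genes that changed, 68 kept their call in every alternative run that tested them, 32 lost it in at least 1, and 0 changed direction. The runs with and without the replicate block are not part of this tally. Mitochondrial levels of NT7 and NT8 and genes near 0 CPM are beyond what these counts resolve.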
